A study of Homo sapiens with 10 samples.

Results

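The transcriptomes of K562 cells exposed to 5 µM I-CBP112 were compared with those of cells exposed to 2 µM of the same compound. K562 is an established line from a chronic myeloid leukemia, with erythroid features and a BCR-ABL fusion. The comparison used 4 of the 10 samples of the series, 2 for each dose, chosen by their labelled treatment, and it covered 12392 of the 23284 genes of the table, namely every gene averaging 0.5 FPKM or more across all 10 samples whose name was not that of a small RNA. The other 6 samples were 2 treated with vehicle (DMSO), 2 with 2 µM CBP30 and 2 with 5 µM CBP30. All cells were the same line in the same medium, were treated for 48 hours, and the labels name no other agent and no engineered allele. The 2 samples of a group are labelled biological replicates, and all findings come from 1 cell line. Levels are FPKM (read fragments, scaled for how long the transcript is and how many reads were mapped), and differences are on the log2(FPKM + 1) scale unless stated otherwise. On that scale the change of a gene near 0 FPKM appears smaller than it is.

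CREBBP and EP300 are paralogous coactivators that acetylate histones, and each has a bromodomain that binds acetylated lysine. I-CBP112 and CBP30 are inhibitors of these bromodomains. In erythroleukemia cells, CREBBP and EP300 are recruited by factors such as GATA1 and MYC, which drive erythroid genes and genes for growth. Replication-dependent histone genes, which turned out to lead the comparison, lie in clusters and supply the nucleosomes of newly copied DNA. Their main mRNAs end in a stem-loop in place of a poly(A) tail, and some of these genes also give polyadenylated mRNAs. The libraries were made from poly(A)+ RNA.

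The step from 2 to 5 µM was small for most genes. The quartiles of all genes lay at −0.07 and 0.06, with a median of 0.0008, and 64 genes moved by over 0.5. Levels with 5 µM were higher in 3 genes (0.0242% of those tested) and lower in 0 (0%) at an adjusted p under 0.05 (limma, Benjamini-Hochberg over all genes). An unadjusted p under 0.05 was reached by 394 higher genes (3.18%) and 314 lower genes (2.53%). Both 5 µM samples lay above both 2 µM samples in 2918 genes (23.5%) and below them in 2919 (23.6%). The spread in this test comes from all 5 groups, and the replicates of 2 µM CBP30 differed far more than the others: the standard deviation of their difference was 0.328, against 0.125 to 0.158 in the other groups, and EEF1A1 was listed at 0 in one of them. In a fit without these 2 samples, 87 genes were higher (0.702%) and 65 lower (0.525%), among them all 3 genes called in the fit of 10 samples and all 24 genes named below. The 24 were chosen on the I-CBP112 samples, which this fit keeps. Leaving out the first or second 2 µM CBP30 sample alone gave 87 and 88 higher and 65 and 62 lower genes, whereas 0 or 1 gene was higher and 0 were lower without any other single sample, in DMSO, 5 µM CBP30 or either I-CBP112 group.

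**Figure D1:**
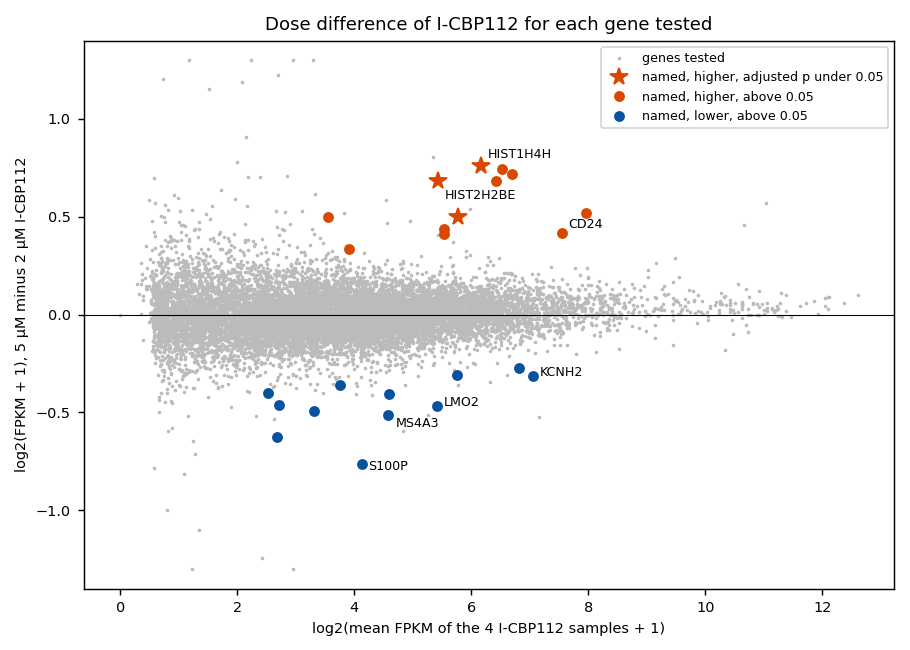
Each point is a gene tested, with the mean level of the 4 I-CBP112 samples on the horizontal axis (log2 of FPKM + 1) and the difference between 5 and 2 µM on the vertical axis. The 3 called genes (stars) and the other named higher genes lie above the cloud and the 12 named lower genes below it, and 6 genes beyond 1.3 in either direction are drawn at the edge.

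The 3 genes that rose were all histone genes. HIST1H4H, which encodes a core histone H4, stood at 52.3 and 52.2 FPKM with 2 µM and at 93.1 and 85.3 FPKM with 5 µM. Its mean rose 1.71-fold, a difference of 0.76 ± 0.07 (SE; 95% interval 0.60 to 0.92, adjusted p = 0.0299, limma). HIST2H2BE, a histone H2B gene, stood at 31.8 and 32.3 FPKM with 2 µM and at 53.4 and 50.4 FPKM with 5 µM. The samples of the doses did not overlap, and the mean rose 1.62-fold (0.68 ± 0.07, SE; 95% interval 0.52 to 0.84, adjusted p = 0.0299, limma). HIST1H2BC, a further H2B gene, was at 43.3 and 45.5 FPKM with 2 µM and at 62.6 and 63.7 FPKM with 5 µM. Its mean rose 1.42-fold, by 0.50 ± 0.05 (SE; 95% interval 0.38 to 0.62, adjusted p = 0.0299, limma), again without overlap. A called gene had to be free of overlap to be named, so nothing is read from that. The alternative settings planned beforehand that left no group with 1 sample gave a range of adjusted p (limma). It was 0.000116 to 0.0673 for HIST1H4H, 0.000206 to 0.0998 for HIST2H2BE and 0.000268 to 0.0998 for HIST1H2BC. Crossed pairs of samples, tried after seeing the data, are not in these ranges. Over all alternatives, the differences were 0.70 to 0.82, 0.64 to 0.72 and 0.46 to 0.53. The RNA came from bulk cultures, in which more cells of a kind and more RNA per cell cannot be told apart.

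**Figure D2:**
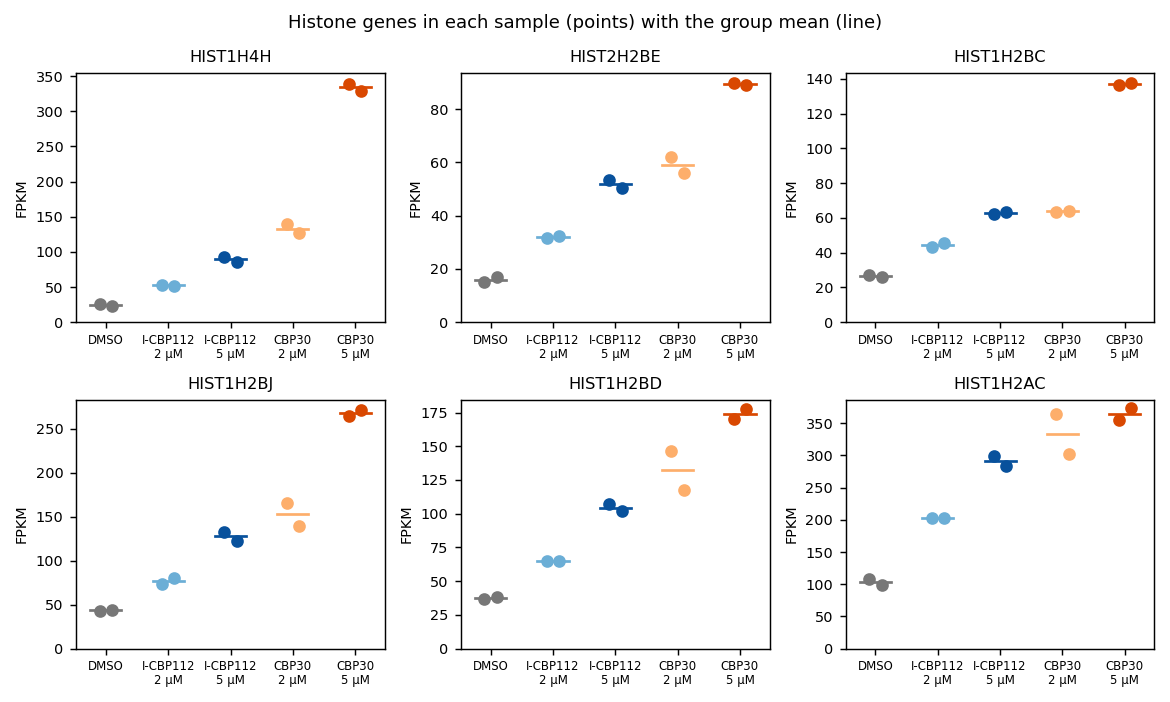
FPKM (vertical axis, from 0) of 6 histone genes in each sample (points) of the 5 groups, with the group mean (line). With I-CBP112, both 5 µM samples lie above both 2 µM samples in all 6 genes, which were chosen on these samples. Both 2 µM samples lie above both DMSO samples in each gene.

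The next genes by test statistic were mostly histone genes too, although their adjusted p was above 0.05. HIST1H2BJ measured 73.4 and 80.6 FPKM with 2 µM and 133 and 122 FPKM with 5 µM (0.72, adjusted p = 0.0712, limma). HIST1H2BD measured 64.6 and 64.7 FPKM against 107 and 102 FPKM (0.68, adjusted p = 0.12, limma). HIST1H2AC, an H2A gene, measured 202 and 203 FPKM against 299 and 284 FPKM (0.52, adjusted p = 0.233, limma). In each, the lower of the 5 µM samples exceeded the higher of the 2 µM samples, from which nothing is read, since they were chosen on these samples. HIST1H2BO, HIST1H2BH and HIST1H2BG had differences of 0.44, 0.41 and 0.75, so that 9 of the 12 named higher genes were histones. All 9 had an adjusted p between 9.85e-05 and 0.017 (limma) in the fit without the 2 µM CBP30 samples. That fit keeps the I-CBP112 samples on which these genes were chosen and has the same differences. It is thus no separate test of them.

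The whole list of replication-dependent histones pointed the same way. Of its 60 genes, 42 passed the filter on level, and 34 of these were higher with 5 µM, against 50.4% of all genes tested. The filter used the mean of all 10 samples, so a gene could pass through the groups where histones were high. The 42 also hold the 9 histones named above, which were chosen on these samples. The counts are thus descriptions. The difference reached an unadjusted p under 0.05 upward in 19 and downward in 1 (background 3.18% and 2.53%), and 3 were called higher, against 0.0242% of all genes. In the fit without the 2 µM CBP30 samples 16 were called, all higher, against 0.702% of all genes. The median difference of the 42 was 0.37, and that of all genes was 0.0008. Summed over all 60, the levels were 2595 and 2502 FPKM in DMSO, 3931 and 3975 FPKM with 2 µM and 5831 and 5546 FPKM with 5 µM, so that the sums of the 3 conditions did not overlap. HIST1H2BK and HIST1H1C held most of these sums. HIST1H2BK, an H2B gene, stood at 1697 and 1674 FPKM with 2 µM and 2544 and 2463 FPKM with 5 µM, and HIST1H1C, a linker histone gene, at 1308 and 1414 against 1944 and 1801 FPKM. Neither was called (unadjusted p = 0.00208 and 0.0241, limma).

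All core classes and the linker class had members that were higher. In H2B, which wraps DNA as a dimer with H2A, 13 of 13 tested genes were higher with 5 µM (50.4% of all genes), with a median of 0.44. Of these 2 were called, against 0.0242% of all genes. In H2A, 10 of 11 were higher, with a median of 0.25. In H3, 4 of 7 were higher (median 0.45), in H4, 5 of 8 (median 0.12), and in the linker histone H1, 2 of 3 (median 0.41). The sum of the H2B genes was 2083 and 2057 FPKM with 2 µM and 3143 and 3048 FPKM with 5 µM, and that of the H4 genes was 80.2 and 73.5 FPKM against 118 and 112 FPKM. HIST1H4H held the greater part of the H4 sum. The genes with opposite sign stood near the floor of the table: HIST1H4A, the lowest at −0.78, measured 0.925 and 0.849 FPKM with 2 µM and 0.199 and 0 FPKM with 5 µM. HIST1H4D had the highest difference of the list, 1.15, from 0.785 and 0.743 to 3.25 and 2.62 FPKM.

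Histone genes that are expressed outside S phase from polyadenylated mRNAs, and the factors that process histone mRNA, were looked at after these values had been seen. Of 8 tested genes for replication-independent histones, 8 were higher (50.4% of all genes) and 0 were called (0.0242% of all genes were called higher), with a median of 0.13. H3F3B, which encodes histone H3.3, measured 197 and 202 FPKM with 2 µM and 239 and 232 FPKM with 5 µM (0.24, unadjusted p = 0.0158, limma). H3F3A, which encodes the same protein, was listed between 0.0692 and 25.5 FPKM in the 4 samples and cannot be read. It is counted among the 8, so its direction in that count cannot be read either. SLBP, the protein that binds the stem-loop, stood at 68.2 and 70.0 FPKM with 2 µM and at 72.4 and 68.4 FPKM with 5 µM, and the 13 processing factors tested had a median of −0.04.

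The 3′ ends of the histone transcripts are shown because they bear on what a poly(A)+ library can capture. A stem-loop was found by its consensus after the stop codon in the GENCODE transcripts of 40 of the 42 tested histone genes, the others having no transcript matched, and 8 forms of its 16 bases occurred. The commonest form was shared by 24 genes. In the lines below the stem-loop is in capitals with 5 bases on either side, 5′ to 3′ on the transcript strand, in hg19 (GRCh37), and each lies in the 3′ untranslated part of an exon:
HIST1H4H, chr6:26285354-26285379, - strand: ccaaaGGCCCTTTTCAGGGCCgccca
HIST2H2BE, chr1:149857733-149857758, - strand: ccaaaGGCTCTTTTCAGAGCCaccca
HIST1H2BC, chr6:26123695-26123720, - strand: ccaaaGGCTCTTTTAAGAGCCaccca
HIST1H2BJ, chr6:27100095-27100120, - strand: ctaacGGCTCTTTTAAGAGCCaccca
HIST1H2AC, chr6:26124892-26124917, + strand: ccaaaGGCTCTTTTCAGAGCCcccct
HIST1H4H carried the form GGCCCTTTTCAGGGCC, which 6 genes had, whereas HIST1H2BC and HIST1H2BJ shared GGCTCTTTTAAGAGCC with 2 other genes. In 11 of the 40 genes, GENCODE lists a transcript that ends over 100 bases beyond the stem-loop, and the 3 called genes were among these. All 11 were higher with 5 µM, with a median of 0.52. Of the 29 genes without such a transcript, 21 were higher, with a median of 0.21. The 11 also held HIST1H2BJ, HIST1H2BD and HIST1H2AC, which like the 3 called genes were chosen on these samples. The 29 held HIST1H2BO and HIST1H2BH, chosen in the same way, and genes near the floor such as HIST1H4A. The counts and medians are thus descriptions of the same 4 samples, and nothing is read from their contrast. The FPKM values do not tell which 3′ end was measured. Copies of histone genes can share reads of 50 bases: of all windows of 50 bases in their annotated transcripts, 0% in HIST1H4H, 8% in HIST2H2BE and 1.8% in HIST1H2BC also occurred in another annotated histone gene. For HIST1H2BK the share was 57.2%, so its value is uncertain.

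The promoters of the 3 called genes are printed because these genes moved together. They are the 190 bases before the RefSeq start site, on build GRCh38.p14, with each motif searched for in capitals:
HIST1H4H, chr6:26285535-26285724, - strand: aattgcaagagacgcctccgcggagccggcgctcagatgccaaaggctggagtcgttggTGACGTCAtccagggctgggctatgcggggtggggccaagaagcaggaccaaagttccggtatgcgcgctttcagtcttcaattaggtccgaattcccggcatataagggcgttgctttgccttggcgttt
HIST2H2BE, chr1:149886683-149886872, - strand: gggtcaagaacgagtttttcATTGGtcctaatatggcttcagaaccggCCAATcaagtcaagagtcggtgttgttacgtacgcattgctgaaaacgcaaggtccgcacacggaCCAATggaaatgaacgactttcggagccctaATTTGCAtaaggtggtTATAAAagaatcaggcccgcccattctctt
HIST1H2BC, chr6:26123927-26124116, - strand: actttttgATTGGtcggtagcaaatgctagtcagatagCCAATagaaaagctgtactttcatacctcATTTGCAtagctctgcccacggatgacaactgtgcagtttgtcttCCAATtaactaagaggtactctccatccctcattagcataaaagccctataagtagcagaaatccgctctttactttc
Motifs were searched on both strands of the 300 bases around the start sites of all 27305 RefSeq promoters given. The CCAAT box (CCAAT) was in 32 of 36 histone promoters and in 35.7% of all promoters, the TATA box (TATAAA) in 25 of 36 and 11.95%, and the octamer core (ATTTGCA) in 17 of 36 and 4.23%. HIST2H2BE and HIST1H2BC had all 3 of these and HIST1H4H had none. The single TATAAA of HIST1H2BC lay on the opposite strand, 220 bases before the start and outside the stretch printed above, which holds no TATA box by these letters. The CREB core (TGACG), part of the cAMP response element, was in 20 of 36 histone promoters and 25.01% of all promoters, and of the called genes in HIST1H4H alone. The GATA site (AGATAA) was in 4 of 36 histone promoters and 10.5% of all, and the E-box (CACGTG) and AP-1 site (TGAGTCA) were in 0 of 36, against 7.43% and 4.92%. None of these 3 motifs was in a called gene.

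Among the higher named genes outside the histones, CD24 had the largest level. CD24, a surface glycoprotein, measured 159 and 162 FPKM with 2 µM and 219 and 210 FPKM with 5 µM (0.41, adjusted p = 0.126, limma). SLAMF6, a receptor of immune cells, measured 9.01 and 8.39 FPKM against 13.4 and 12.04 FPKM (0.50, adjusted p = 0.232, limma). FGFR1, a receptor tyrosine kinase for fibroblast growth factors, measured 12.6 and 11.9 FPKM against 15.6 and 15.8 FPKM (0.34, adjusted p = 0.233, limma). Their samples did not overlap between doses, but they were chosen on these samples. In the fit without the 2 µM CBP30 samples, their adjusted p was 0.00128, 0.0157 and 0.0133.

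No gene passed the threshold downward, and the 12 genes below are those with the largest test statistics. S100P, a calcium-binding protein, stood at 22.0 and 20.1 FPKM with 2 µM and at 12.8 and 11.2 FPKM with 5 µM, 57.0% of its mean with 2 µM (−0.76 ± 0.11, SE; 95% interval −1.01 to −0.52, adjusted p = 0.123, limma). MS4A3, a membrane protein of myeloid progenitors, stood at 27.5 and 26.9 FPKM against 18.0 and 19.6 FPKM (−0.51, adjusted p = 0.137, limma). PRG2, the major basic protein of eosinophils, stood at 6.24 and 7.30 FPKM against 4.71 and 3.43 FPKM (−0.62, adjusted p = 0.431, limma). These 3 are in the list of myeloid genes, of whose 14 tested members 5 were lower and 9 higher.

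LMO2, which joins the GATA1 and TAL1 complex on DNA, measured 48.5 and 48.3 FPKM with 2 µM and 34.9 and 34.7 FPKM with 5 µM (−0.46, adjusted p = 0.165, limma). The 2 samples of each dose were almost alike and the doses lay well apart. PKLR, the red cell pyruvate kinase, measured 5.62 and 5.41 FPKM against 4.09 and 3.78 FPKM, and GRAP2, an adaptor of receptor signalling, 10.2 and 10.8 FPKM against 7.44 and 6.96 FPKM. KIF1A, a kinesin motor, measured 26.2 and 27.0 FPKM against 20.1 and 19.6 FPKM. The other named lower genes had differences of −0.27 in FAM83A, −0.36 in OPLAH, −0.31 in KCNH2, a potassium channel, −0.31 in VEGFA, the angiogenic growth factor, and −0.46 in ZNF321P. VEGFA measured 59.5 and 58.0 FPKM with 2 µM and 45.4 and 49.1 FPKM with 5 µM. All 12 lay lower in both 5 µM samples than in both 2 µM samples, from which nothing is read, since they were chosen on these samples, and their adjusted p was 0.000917 to 0.0426 in the fit without the 2 µM CBP30 samples.

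**Figure D3:**
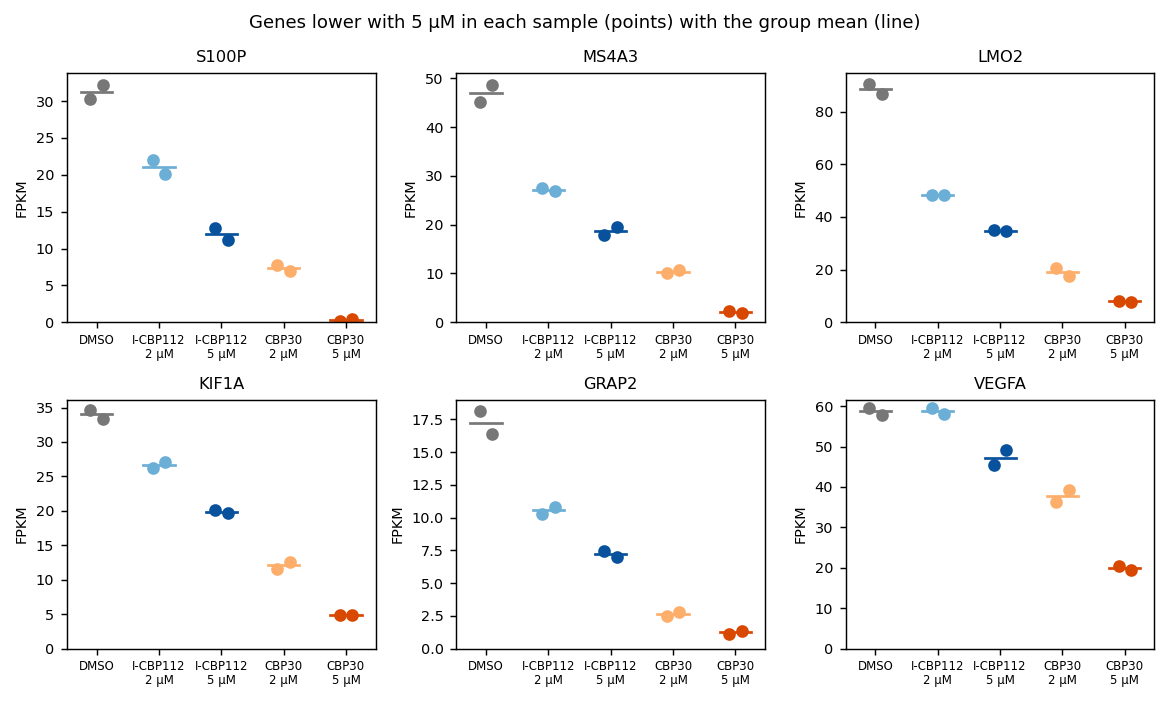
FPKM (vertical axis, from 0) of 6 genes named for the largest test statistics downward, in each sample (points) of the 5 groups with the group mean (line). The 5 µM I-CBP112 samples lie below the 2 µM samples in each gene, and VEGFA is the one whose 2 µM samples lie at the level of DMSO.

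The order over DMSO, 2 µM and 5 µM was a graded one in most of the named genes. The means went up along this order in 12 of 12 higher genes and down in 11 of 12 lower genes, ZNF321P being the exception. Of all 12392 genes, the means went up along it in 3253 and down in 3419. Of the same genes, 6243 were higher and 6148 lower with 5 than with 2 µM. The named genes were chosen by their direction from 2 to 5 µM, so only the part from DMSO to 2 µM could vary. The nearer background is thus the 6243 and 6148 genes of the same direction, not all genes. HIST1H4H stood at 25.5 and 23.8 FPKM in DMSO, was higher with 2 µM by 1.06 (adjusted p = 0.000488, limma) and with 5 µM by 1.82 (adjusted p = 1.49e-05, limma). LMO2 stood at 90.4 and 86.7 FPKM in DMSO and was lower with 2 µM (−0.86, adjusted p = 0.00118, limma) and with 5 µM (−1.32, adjusted p = 4.48e-05, limma). VEGFA, though counted among the 11, had almost equal means in DMSO and with 2 µM (58.7 FPKM in both): its DMSO samples, at 59.6 and 57.8 FPKM, overlapped those of 2 µM, and its level with 5 µM was below DMSO (−0.31, adjusted p = 0.0244, limma). ZNF321P stood at 6.02 and 6.24 FPKM in DMSO, 6.35 and 6.74 FPKM with 2 µM and 3.93 and 5.10 FPKM with 5 µM. The comparisons with DMSO share the I-CBP112 samples with the dose comparison and are given beside it only.

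MYC, GATA1, MYB, TET1, FOSL1 and CCND1, which the study follows, and a few genes set beside them were not called between the doses. MYC, the growth-promoting transcription factor, measured 241 and 231 FPKM with 2 µM and 210 and 201 FPKM with 5 µM (−0.20 ± 0.06, SE; 95% interval −0.34 to −0.06, adjusted p = 0.656, limma). GATA1, the lead erythroid factor, measured 138 and 151 FPKM with 2 µM and 139 and 130 FPKM with 5 µM, so that the doses overlapped (95% interval −0.32 to 0.11, adjusted p = 0.991, limma). CCND1, cyclin D1, measured 3.30 and 3.28 FPKM against 2.23 and 2.95 FPKM, and TERT, the catalytic subunit of telomerase, 2.58 and 2.81 against 2.15 and 2.16 FPKM. MYB, TET1, FOSL1, FGF13, FGFR3 and HOXB9 had differences between −0.18 and −0.10 and no overlap. The inhibitor's targets CREBBP and EP300 had differences of −0.12 and −0.19, with overlap in CREBBP. HMGA2 did not reach the level filter. The reference genes GAPDH and ACTB differed by 0.06 and 0.02 and overlapped, and the sign of both turned in some alternative settings. Of these 14 tested genes, 12 were lower with 5 µM (49.6% of all genes), with a median of −0.12, and 10 lay lower in both samples, against 23.6% of all genes. None was called, and of all genes 0.0242% were called higher and 0% lower.

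Lists of genes with related roles were described by their counts. In the list of erythroid transcription factors, 18 of 19 tested genes were lower with 5 µM (49.6% of all genes), 11 without overlap between doses (23.6% of all genes), with a median of −0.09. KLF1, the factor of adult globin genes, measured 35.7 and 37.9 FPKM with 2 µM and 29.8 and 29.0 FPKM with 5 µM, and CBFA2T3, a corepressor, 54.8 and 55.1 against 50.4 and 47.6 FPKM. Of the MYC network, which holds MYC and its partners and rivals for MAX, 12 of 13 were lower (8 without overlap; median −0.12). Of the ribosome biogenesis genes, which act in the nucleolus, 40 of 45 were lower, 29 of them without overlap, with a median of −0.09. PPAN, a factor of the large subunit, measured 29.8 and 30.1 FPKM against 25.4 and 23.8 FPKM, and TCOF1, which promotes ribosomal DNA transcription, 31.5 and 31.7 against 27.8 and 26.7 FPKM. Of the HOXB and oncofetal genes 14 of 15 were lower (median −0.08). None of these lists had a member called in the fit of 10 samples, and 3, 3, 5 and 2 members had an unadjusted p under 0.05 downward (background 2.53%). In the fit without the 2 µM CBP30 samples, 2, 0, 3 and 0 members were called lower (0.525% of all genes) and 0 higher.

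The opposite sign prevailed in other lists, again with 0 members called in the fit of 10 samples. In the fit without the 2 µM CBP30 samples, 1 cholesterol synthesis, 1 DNA replication and 3 MAPK feedback genes were called higher (0.702% of all genes). In that fit 0 cytosolic ribosomal protein genes were called, and 0 members of these lists were called lower. Of the cholesterol synthesis genes 24 of 27 were higher (50.4% of all genes), 15 of them without overlap (23.5%), with a median of 0.09. INSIG1, which holds back sterol-regulated transcription factors, measured 22.0 and 22.1 FPKM with 2 µM and 26.1 and 25.2 FPKM with 5 µM, and IDI1, an enzyme of isoprenoid synthesis, 37.4 and 37.4 against 41.9 and 44.1 FPKM. Of the DNA replication genes 33 of 45 were higher (24 without overlap; median 0.05). GINS1, a part of the replicative helicase, measured 14.4 and 14.3 FPKM against 17.1 and 17.3 FPKM, and RRM2, a subunit of ribonucleotide reductase, 86.1 and 82.9 against 96.6 and 94.6 FPKM. In the list of MAPK feedback genes 16 of 23 were higher, 13 without overlap, with a median of 0.08. SPRY2, which damps receptor tyrosine kinase signals, measured 6.56 and 6.64 FPKM against 8.37 and 8.59 FPKM, and DUSP4, a phosphatase of MAP kinases, 2.73 and 2.91 against 3.61 and 3.24 FPKM. Of the cytosolic ribosomal proteins 65 of 78 were higher, with a small median of 0.04 that became −0.008 under quantile normalization, and 11 were without overlap, fewer than the background.

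Globin genes did not move together. Of 8 tested, 3 were higher and 5 lower, with a median of −0.04, and in 0 of 8 were the doses free of overlap (23.5% of all genes lay above and 23.6% below without overlap). HBG1, a fetal globin gene, measured 142 and 167 FPKM with 2 µM and 159 and 141 FPKM with 5 µM, and HBZ, an embryonic one, 275 and 318 against 276 and 244 FPKM. In the list of iron handling genes, SLC40A1, the iron exporter ferroportin, measured 13.1 and 12.8 FPKM against 9.88 and 10.0 FPKM, while 6 of 14 genes of the list were higher. In the interferon response list 17 of 25 were higher, and RSAD2, an antiviral enzyme, measured 8.17 and 9.16 FPKM against 11.8 and 11.1 FPKM. G1 regulators held CCNE2, cyclin E2, at 8.17 and 8.14 FPKM against 10.3 and 10.0 FPKM. The remaining lists (mitosis, chromatin modifiers, signalling, metabolism, stress, apoptosis, cytoskeleton, red cell and megakaryocyte genes) had medians between −0.09 and 0.06 and 0 members called in the fit of 10 samples. Some had members called in the fit without the 2 µM CBP30 samples. Of 22 JAK-STAT5 genes 2 were higher and 0 lower, and of 31 ATF4 response genes 2 were lower and 0 higher (0.702% and 0.525% of all genes were higher and lower).

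The genes that CBP30 moved were then followed through the I-CBP112 step, since the CBP30 and DMSO samples that chose them are not part of that step, apart from the shared estimate of the spread. Among 1554 genes that were lower with both doses of CBP30 than with DMSO, 1348 (86.7%) were lower with 5 than with 2 µM I-CBP112, against 49.6% of all genes, and the median was −0.09. In 963 of the 1554, both 5 µM samples lay below both 2 µM samples (23.6% of all genes). Among 1399 genes higher with both doses of CBP30, 1235 (88.3%) were higher with 5 µM I-CBP112, with a median of 0.11, and in 911 of the 1399 the samples lay above without overlap (23.5% of all genes). Among 4806 genes called with neither dose, 48.8% were lower, the median was 0.002, and 899 lay below and 899 above without overlap. With a trend with transcript length removed from each sample and the classes formed anew, 86.6% of 1896 CBP30-lowered genes were lower, and 14.4% of 1868 CBP30-raised genes were. HIST1H4H, HIST2H2BE, HIST1H2BC and CD24 were in the higher class, and S100P and LMO2 in the lower one.

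**Figure D4:**
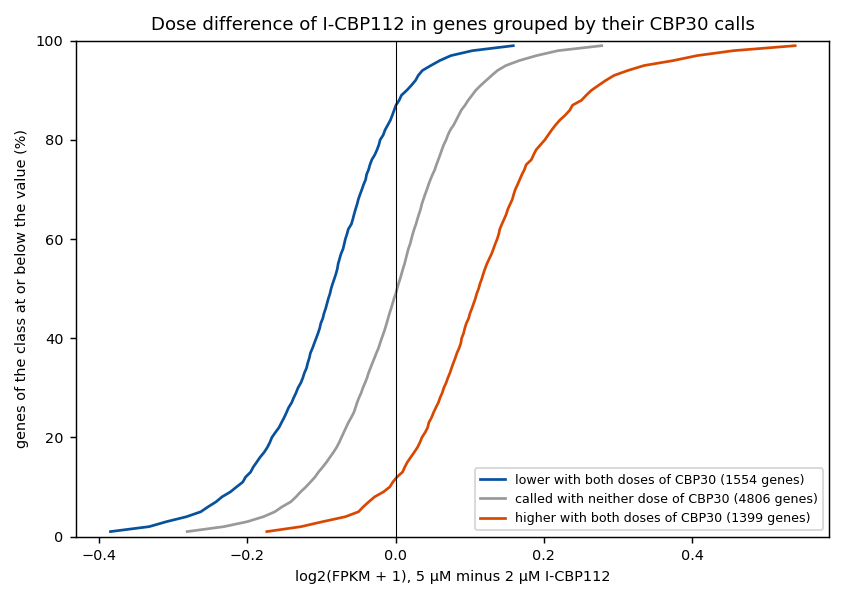
Cumulative share of genes (vertical axis, percent) by their difference between 5 and 2 µM I-CBP112 (horizontal axis, log2 of FPKM + 1) in 3 classes set by the CBP30 samples. The curve of the 1554 genes lower with CBP30 lies left of 0 for 86.7% of its genes, and that of the 1399 genes higher with CBP30 lies right of 0 for 88.3%.

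CBP30 was given at the same doses, so its step from 2 to 5 µM could be set beside that of I-CBP112. The I-CBP112 step was above the CBP30 step in 724 genes (5.84%) and below it in 455 (3.67%) at an adjusted p under 0.05 (limma interaction). These counts rest on the 2 µM CBP30 samples: without the first they were 1698 and 1265, without the second 3967 and 3209, and without any other sample 47 to 171 and 8 to 82. HIST1H4H differed by 0.76 with I-CBP112 and by 1.32 with CBP30 (139 and 126 FPKM with 2 µM, 338 and 329 FPKM with 5 µM), and the steps differed (adjusted p = 0.0202, limma interaction). HIST1H2BC had steps of 0.50 and 1.09 (adjusted p = 0.00639, limma interaction). For HIST2H2BE the steps were 0.68 and 0.59, and the interval of their difference, −0.14 to 0.32, held 0. S100P dropped further with CBP30, from 7.76 and 6.97 to 0.225 and 0.482 FPKM, a step of −2.63 against −0.76 (adjusted p = 0.00117, limma interaction), and MS4A3 had −1.86 against −0.51 (adjusted p = 0.00111, limma interaction). Across all genes, Pearson's r between the steps was 0.12, and it was 0.25 or 0.03 without the first or second 2 µM CBP30 sample and 0.23 with the length trend removed. The difference between the 2 µM CBP30 replicates was itself related to transcript length (Spearman's rho −0.61 across 11778 genes). Genes share libraries and are not independent replicates. In 12 of 12 higher and 12 of 12 lower named genes, the mean with 2 µM CBP30 lay beyond that with 5 µM I-CBP112 in the direction of the step. The samples overlapped in some of them. HIST1H2BC measured 63.6 and 64.0 FPKM with 2 µM CBP30 and 62.6 and 63.7 FPKM with 5 µM I-CBP112. The same count was not made over all genes, and it rests on the 2 µM CBP30 samples, whose replicates differed most.

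The samples carried the marks of the labelled line. The erythroid markers of K562 were all tested, and their summed level was 1232 and 1344 FPKM with 2 µM and 1252 and 1167 FPKM with 5 µM. Of the markers of T cells, B cells, macrophages, fibroblasts and endothelial cells, 3, 1, 1, 1 and 0 of 5 each reached the level filter. Their sums were 17.7 to 18.1 FPKM with 2 µM and 20.2 to 23.3 FPKM with 5 µM for T cells, nearly all from CD3D, while the T cell marker CD2 and the B cell marker MS4A1 were listed at 0 in the 4 samples, and the part of CD3D in the results was not tested. Epithelial markers, of which K562 expresses the keratins, summed to 598 and 634 against 656 and 636 FPKM. The step was related to transcript length: in 5 equal bins by length, its median was 0.03 in the shortest and −0.02 in the longest genes (Spearman's rho −0.17 across 11778 genes), and with the length trend removed HIST1H4H, HIST2H2BE and HIST1H2BC had differences of 0.74, 0.67 and 0.49 and adjusted p of 0.00203, 0.00244 and 0.0131 (limma).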

How the data were processed

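Per the labels, K562 cells were treated for 48 hours, poly(A)+ RNA was made into stranded libraries (TruSeq) and sequenced as single reads of 50 bases. The authors deposited 1 FPKM table on hg19, processed with Nextpresso, with 1 column per sample. The submitters' processing notes list TopHat2 2.0.10, Bowtie 1.0.0, SAMtools 0.1.19, Cufflinks 2.2.1 and Cuffnorm. No counts were given, so the depth is unknown and no counting error was derived. FPKM scales by transcript length and library, so a shift in a few abundant genes moves all others. Summed FPKM was 594701 to 620641 in the 4 I-CBP112 samples.

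Genes with a mean under 0.5 FPKM and small RNA genes (names starting MIR, SNOR, SCARNA or RNU; 396 genes, 5 of them host genes) were left out. On log2(FPKM + 1), limma 3.58.1 (R 4.3.3; lmFit, eBayes with trend) was fitted to all 10 samples as 5 group means, two-sided, with Benjamini-Hochberg adjustment over 12392 genes and a threshold of 0.05, after tests on simulated data. The simulated spread of a gene came from the groups other than 2 µM CBP30 and was the same in every sample. The simulated tests thus do not cover the larger spread of that group. With 2 against 2 samples, the exact permutation test of 1 gene cannot go below p = 0.333. The members and the gene lists were chosen with earlier results of these data known. Named genes are those called with at least 5 FPKM and no overlap, up to 12 per direction, filled to 12 by the largest moderated t among uncalled genes, plus a list of the genes the study names and others set beside them (TERT, FGF13, FGFR3, HOXB9, HMGA2; 1 gene is not reported here) and, of each list, members called or else up to 3 by moderated t with at least 1 FPKM. HIST1H2BK, HIST1H1C, HIST1H4A, HIST1H4D and HBG1, the replication-independent histones, the processing factors and the CCAAT, TATA and octamer motifs were chosen after values were seen. Transcript lengths, stem-loops and exons came from GENCODE v44 on GRCh37 (10634 genes matched by symbol, 1144 by a RefSeq synonym), and promoters from RefSeq.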

Additional observations from a re-analysis of the deposited data

Results flagged for a closer look

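In 13 named genes the step from 2 to 5 µM differed between I-CBP112 and CBP30 by the interaction test (limma, adjusted p under 0.05). The difference, the I-CBP112 step minus the CBP30 step on the log2(FPKM + 1) scale, was −0.565 in HIST1H4H and −0.593 in HIST1H2BC, where both steps were upward. It was positive where both steps were downward: 1.87 in S100P, 1.35 in MS4A3, 0.76 in KIF1A, 0.7 in LMO2, 0.508 in FAM83A, 0.577 in VEGFA, 0.398 in KCNH2, 0.647 in MYC, 0.721 in GATA1 and 0.314 in MYB. In ZNF321P it was −0.956, with a step of −0.46 for I-CBP112 and 0.50 for CBP30, the only one of the 13 with steps of opposite sign. The adjusted p ranged from 0.00111 in MS4A3 to 0.0496 in MYB. The CBP30 steps rest on the 2 µM CBP30 samples, whose replicates differed most. No group held enough samples to look for a single sample far from the others.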

How the results depend on the processing

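Of the 38 named genes, 36 kept their direction under all 25 alternatives in which they had a value. The exceptions were GAPDH, which ranged from −0.0037 to 0.12 when 1 sample was left out, and ACTB, which ranged from −0.016 to 0.061 in the same way and was −7.1e-05 with quantile normalization. The 3 calls held with a pseudocount of 0.1, with no filter, with a filter of 5 FPKM, with small RNA genes kept, and with only the I-CBP112 samples, 2 of them held with quantile normalization, and all 3 were lost with median centring, with no variance trend, and without any single sample of DMSO, 5 µM CBP30 or I-CBP112. Against 3 higher and 0 lower genes, the counts were 5 and 1 with no filter, 7 and 1 with small RNA genes kept, 0 higher with median centring, 6 higher with quantile normalization, 0 higher with no variance trend, 21 and 8 with only the I-CBP112 samples, 87 and 65 without both 2 µM CBP30 samples, and 8 and 2 with the length trend removed. Leaving out 1 sample gave 0 to 88 higher and 0 to 65 lower genes. The cause of these shifts was not tested. Some of these settings also fitted fewer samples.

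Replicate numbers did not pair the samples (r of the deviations between both I-CBP112 groups was −0.14). With the replicate block 1 gene was higher, HIST1H4H, and HIST2H2BE and HIST1H2BC had an adjusted p of 0.0998 (limma). With the length trend removed as well the counts were 6 and 1, and within the I-CBP112 samples alone 31 and 15. Crossed pairs of the I-CBP112 samples, tried after seeing the data, gave 243 and 198.

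For the difference between the compounds' steps, 724 above and 455 below became 316 and 175 with no filter, 424 and 208 with small RNA genes kept, 461 and 242 with the replicate block, 784 below with quantile normalization, and 683 below with the length trend removed. Leaving out 1 sample gave 47 to 3967 above and 8 to 3209 below. The median step of the genes lower with both doses of CBP30 stayed between −0.104 and −0.0688, and that of the genes higher with both between 0.0882 and 0.14.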
